A study of Mus musculus with 6 samples.

Results

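The regions described here are core promoters: the stretch within 500 bp of an annotated gene start, on either side, as covered by Agilent promoter arrays. A spot was taken where its annotation names exactly 1 gene symbol at a distance of 500 bp or less, and a gene entered with at least 3 such spots, whose values were averaged. Of 471870 usable spots on the 2 array designs, 442557 named 1 symbol and 71530 of these lay within 500 bp. They covered 16027 genes, of which 2058 had 1 or 2 spots and were left out. The remaining 13969 core promoters, out of 16567 genes with at least 3 such spots at any distance, held 3 to 36 spots each, with a median of 5, and 2537 rested on 3 spots. Spots that name several symbols, 16383 in all, lie between neighbouring genes and stayed out. No gene was measured on both designs.

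The series measured chromatin immunoprecipitation on arrays (ChIP-chip) in C2C12, an established line of mouse myoblasts that form multinucleate myotubes when serum is lowered. The cells of all groups had gone through retroviral transfer and puromycin selection and were differentiated for 5 days in 2% horse serum. In 2 TEAD4 samples the vector carried TEAD4 with a Flag-HA tag, and in the 1 control sample it was empty. Anti-Flag precipitated DNA (IP) was labelled with Cy5 and input DNA with Cy3 on every array. The tagged protein comes from a vector and the antibody sees the tag, so untagged TEAD4 was not measured. The labels call the TEAD4 samples duplicates and do not say whether they came from separate cultures, so their spread may be technical. These ratios measure DNA recovery and not RNA, so the labelled cell state was not checked against marker expression.

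TEAD4 belongs to the TEAD family of transcription factors, which bind DNA through a TEA domain and activate genes mainly by recruiting the co-activators YAP and TAZ, the effectors of the Hippo pathway. Their classical DNA motif is the M-CAT element, with the core GGAATG or, on the other strand, CATTCC, first described in promoters of muscle genes. TEAD proteins bind many sites in distal enhancers as well as near gene starts. A core promoter holds the sequence where RNA polymerase II assembles and often has open chromatin and many CpG dinucleotides.

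Sequences upstream of the start were printed for 8 of the core promoters with the largest TEAD4 enrichment, to show where the TEAD core motif stood in them. They were read from the RefSeq promoter table (GRCm38.p6). The first 6 held GGAATG on either strand within 250 bases before the RefSeq start, and the last 2 held none. Capitals mark GGAATG or CATTCC, and positions count back from the base before the RefSeq start, which is -1. The Trip6 stretch is chr5:137314242-137314313 on the minus strand, with the motif beginning at -32. The Mrpl22 stretch is chr11:58171529-58171614 on the plus strand, with CATTCC beginning at -95. The Ogn stretch is chr13:49607889-49607974 on the plus strand, with the motif at -86. The 1700013G24Rik stretch is chr4:137453180-137453265 on the plus strand, with the motif at -76. The Ankrd1 stretch is chr19:36119922-36120094 on the minus strand and holds the motif at -210 and at -123. The Pan2 stretch is chr10:128303156-128303241 on the plus strand, with CATTCC at -139. The Chrng and Fto stretches, chr1:87205721-87205810 and chr8:91313435-91313524, both on the plus strand, are the 90 bases before the start.
Trip6: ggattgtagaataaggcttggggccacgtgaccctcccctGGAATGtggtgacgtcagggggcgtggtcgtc
Mrpl22: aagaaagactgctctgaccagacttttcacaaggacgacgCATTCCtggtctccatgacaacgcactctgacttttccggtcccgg
Ogn: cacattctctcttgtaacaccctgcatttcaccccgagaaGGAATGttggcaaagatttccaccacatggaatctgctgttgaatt
1700013G24Rik: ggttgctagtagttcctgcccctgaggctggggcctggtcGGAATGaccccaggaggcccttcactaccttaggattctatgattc
Ankrd1: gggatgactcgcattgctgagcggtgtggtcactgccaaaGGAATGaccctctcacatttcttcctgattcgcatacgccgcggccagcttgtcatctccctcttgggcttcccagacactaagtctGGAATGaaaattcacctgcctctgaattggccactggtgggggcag
Pan2: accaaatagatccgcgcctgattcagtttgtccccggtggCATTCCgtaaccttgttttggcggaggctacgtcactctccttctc
Chrng: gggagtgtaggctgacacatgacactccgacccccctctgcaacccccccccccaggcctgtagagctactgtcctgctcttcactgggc
Fto: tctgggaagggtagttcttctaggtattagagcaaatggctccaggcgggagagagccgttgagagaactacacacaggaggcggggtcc

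All values below are log2 of IP over input, centred on each array's median, so 0 is the array's typical spot and 1 is 2-fold over it. Levels called over input below are therefore relative to that typical spot. The deposited log10 ratios had medians of -0.1914 and -0.1658 on the control arrays and of -0.0053 to 0.0028 on the TEAD4 arrays. Centring thus raised the control's values and hardly moved those of TEAD4. Over the 13969 core promoters the median was 0.20 in TEAD4 sample 1, 0.14 in sample 2 and 1.36 in the control. The SD across core promoters was 0.36, 0.38 and 1.15 in the same order. As processed here, the control stood higher and spread wider at gene starts than either TEAD4 sample. With normexp background correction its median was 0.22, beside a median TEAD4 mean of 0.17. Per the file headers, an extended dynamic range was used to extract the control arrays but not the TEAD4 arrays, and each sample was scanned on its own day, so these cannot be told apart from the group. The control's IP signal was also the dimmest, with a median of 1.84 and 2.04 times the local background on the 2 designs, against 3.63 to 5.41 in the TEAD4 samples. IP was not well above background for 1976 of the 67996 spots in core promoters on the control arrays and for 96 on at least 1 TEAD4 array. The part of these technical differences in any TEAD4 minus control value was not tested.

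Gene starts as a class lay above their surroundings in every sample and, as processed here, most in the control. Over single spots up to 500 bp downstream of the start the mean was 0.24 in TEAD4 sample 1, 0.20 in sample 2 and 1.52 in the control. Up to 500 bp upstream it was 0.12, 0.14 and 1.04. From -2500 to -2000 bp it was -0.12, -0.07 and 0.09. The share of spots at least 2-fold over input in both TEAD4 samples rose from 0.846% in that distal stretch to 2.02% just upstream and 2.60% just downstream of the start, and was still 2.36% between 500 and 1000 bp downstream. In the control the share of spots 2-fold over input was 23.5% distally and 61.6% just downstream.

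**Figure D1:**
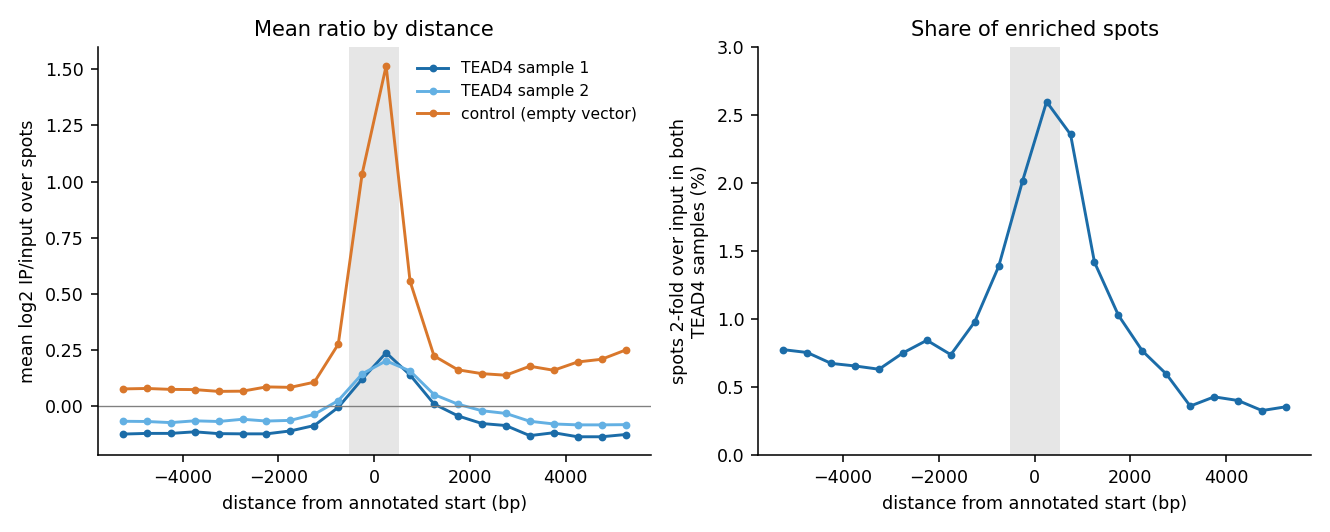
Left, mean log2 IP/input of spots naming 1 symbol in 500-bp bins of distance from the annotated start, for each sample; right, the percentage of those spots at least 2-fold over input in both TEAD4 samples. The grey band is the core, within 500 bp. The control peaks at 1.52 just downstream of the start, TEAD4 samples 1 and 2 at 0.24 and 0.20, and the share of enriched spots peaks at 2.60%.

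At least 2-fold enrichment over input in both TEAD4 samples was reached by 145 of 13969 core promoters, 1.04%. The rule has no test of its own. Sample 1 alone gave 265 and sample 2 alone 399. By array design the count was 93 of 7023 on the first and 52 of 6946 on the second. A limma fit of the TEAD4 samples against input called 2551 core promoters higher, 18.3%, and 330 lower, 2.36%, at an adjusted p under 0.05. Its spread comes from the 2 TEAD4 samples, with 1 residual degree of freedom and 9.05 prior degrees of freedom pooled over promoters. Across all core promoters the TEAD4 samples correlated with Pearson's r = 0.634, and with the control at 0.333 and 0.186. These correlations are over promoters of the same libraries and carry no test.

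The control was also enriched at many of these starts. At least 2-fold enrichment over input, counted after centring on each array's median, was found at 8465 core promoters in the control, 60.6%, and at 67 of the 145. The centring raised the control, so its count is relative to its own typical spot. The control's count was 1055 with normexp background correction and 4780 with all arrays brought to 1 median absolute deviation. A stricter rule, 2-fold over input and also 2-fold over the control in both TEAD4 samples, left 38 core promoters, 0.272%. With arrays reduced to 1 TEAD4 sample that count was 57 without sample 2 and 104 without sample 1. By limma, 786 core promoters were higher in TEAD4 than in the control, 5.63%, and 9370 lower, 67.1%. The control is 1 sample with no spread of its own, so every SE and p against it, here and below, measures 1 library against the spread of the TEAD4 duplicates, and no spread among controls. At 95 of the 145 the control lay below both TEAD4 samples and at 40 above both. The TEAD4 mean lay above the control at 68.3% of the 145 and at 17.0% of all core promoters. The 145 were chosen for high TEAD4 values, which favours a control below them, so these counts describe them and are no test. Of the 145, limma called 71 higher than the control and 24 lower, and 50 neither way. This split depends on the scaling: with all arrays brought to 1 common median absolute deviation, limma called 51 higher and 34 lower over all core promoters. The median TEAD4 minus control moved from -1.14 to -0.44 with it, so directions against the control are relative to that shift. With normexp background correction that median was -0.10 and with loess -0.61. Among the 145, the 71 called higher than the control had TEAD4 above it with loess and with normexp as well (the scaling stretches TEAD4 and shrinks the control, so there this could not turn). Of the 24 called lower, TEAD4 lay above the control in 23 with that scaling, in 19 with normexp and in 3 with loess, so a direction below the control depends on the processing.

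The 20 core promoters with the largest TEAD4 means had means from 1.70 to 2.60. Trip6, a LIM-domain protein of focal adhesions, was the highest, with 2.79 in TEAD4 sample 1, 2.42 in sample 2 and 0.84 in the control, a mean of 6.08-fold over input. Its TEAD4 samples did not overlap with the control and lay 1.76 ± 0.25 (SE) above it (limma, adjusted p = 1.05e-04). The 5 spots of Trip6 lie on chromosome 5 between 137543586 and 137544232, in the coordinates the files give (build not given in the sources used). Each of the 5 was at least 1.64 in both TEAD4 samples, and the next spot, 692 bp downstream, fell to 0.60 and 1.13.

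Mrpl22, a protein of the large mitochondrial ribosomal subunit, was at 2.06 and 2.65 with -0.94 in the control. TEAD4 minus control was 3.30 ± 0.28 (SE) (limma, adjusted p = 5.3e-06), and 1.48 with normexp. It rests on 3 spots on chromosome 11 between 57987910 and 57988291, all downstream of the start, and 1 of the 3 was not well above background in the control's IP channel.

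Ankrd1, a muscle ankyrin repeat protein and a widely used YAP target gene, was at 1.83 and 2.04 with -0.09 in the control. The difference from the control was 2.02 ± 0.24 (SE) (limma, adjusted p = 2.86e-05). Its 5 core spots lie on chromosome 19 between 36184519 and 36185351. The highest of them lay at -333 bp, at 2.16 and 3.23, and the enrichment reached beyond the core, with 1.83 and 1.78 at -677 bp. The control had 1 high spot there, 2.21 at 55 bp, while its other 4 lay between -1.80 and 1.09. Of the 8 printed sequences, that of Ankrd1 holds 2 copies of the motif.

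Chrng encodes the gamma subunit of the embryonic muscle acetylcholine receptor. Its core promoter was at 1.86 and 2.65 with 1.11 in the control, a difference of 1.14 ± 0.31 (SE) (limma, adjusted p = 0.00733). The values were lopsided: the spot at -299 bp was at 2.80 and 3.55, and the spot at 375 bp was at -0.09 and 1.09, below the control's 2.02. Ogn, a small leucine-rich proteoglycan of the matrix, was at 1.79 and 2.55 with 0.21 in the control. Both of its samples lay above the control, and the spot at -84 bp was the highest of its 4 at 2.24 and 3.55.

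Creb3l2, a transcription factor anchored in the membrane of the endoplasmic reticulum, was at 1.72 and 1.90 with 0.64 in the control. Ppp6c, the catalytic subunit of protein phosphatase 6, was at 1.60 and 2.09 with -0.69. Dmap1, a subunit of the TIP60 acetyltransferase complex, was at 1.65 and 1.96 with 0.38. In each the control lay below both TEAD4 samples, and limma called the difference, with adjusted p of 0.00108, 1.48e-05 and 3.83e-04.

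Mustn1, a small protein of muscle and bone, was at 1.49 and 2.01 with 0.26 in the control, and Blzf1, a golgin of the Golgi apparatus, at 1.41 and 2.13 with -0.22. Ttc23, a tetratricopeptide repeat protein, was at 1.60 and 1.80, and its control value of -1.55 was the lowest among the 145. Rpl3, a protein of the large ribosomal subunit, was at 1.37 and 2.02 with -0.47. These too had no overlap between TEAD4 and control, with differences of 1.49, 1.99, 3.25 and 2.17 and limma adjusted p of at most 5.63e-04. Blzf1, Ttc23, Rpl3 and Ppp6c rest on 3 spots each.

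In other promoters of the 20 the control, as processed here, was close to or above TEAD4. Fto, an RNA demethylase, was at 1.86 and 2.17 but at 3.01 in the control, where its 4 spots lay between 2.62 and 3.37. Arf2, a small GTPase of vesicle traffic, was at 1.71 and 1.85 with 2.70, and Htra2, a mitochondrial protease, at 1.95 and 1.5 with 2.61. In these 3 the control lay above both TEAD4 samples and limma called TEAD4 lower, with adjusted p of 0.00379, 0.00455 and 0.0106. TEAD4 lay above the control in all 3 with normexp or with arrays brought to 1 median absolute deviation, and at Fto also with loess. The RIKEN gene 1700013G24Rik at 1.76 and 2.14, Pan2 [Usp52 on the array], a deadenylase subunit, at 2.12 and 1.64, and Elp6 [Tmem103], a subunit of the Elongator complex, at 1.84 and 1.67 were not told apart from controls of 1.57, 1.29 and 1.24 by limma (adjusted p = 0.189, 0.0663 and 0.0675). With normexp the controls of these were at 0.449, -0.178 and 0.645, and TEAD4 lay 1.602, 1.891 and 0.925 above them, so their nearness to the control depends on the processing. Fuz, a planar polarity protein of cilia, at 1.5 and 2.24 with 1.10, and Lmod1, leiomodin 1 of smooth muscle, at 1.28 and 2.29 with 0.87, passed narrowly (limma, adjusted p = 0.0421 and 0.0395). The samples of Lmod1 differed by the most among the 20, with an SD of 0.71 (n = 2). With normexp 15 of the 20 were still 2-fold over input in both samples, while Mrpl22, Ogn, Arf2, Blzf1 and Mustn1 fell short in TEAD4 sample 1, at 0.84, 0.64, 0.88, 0.78 and 0.85.

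**Figure D2:**
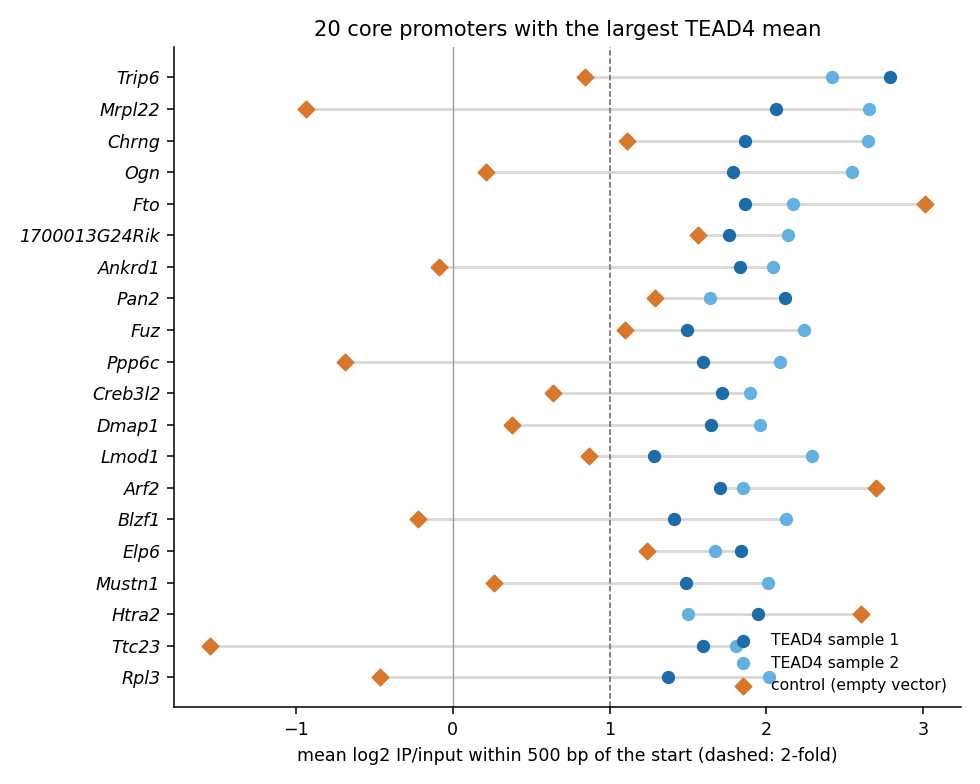
Mean log2 IP/input within 500 bp of the start for the 20 core promoters with the largest TEAD4 mean, ordered by that mean; circles are the TEAD4 samples, diamonds the 1 control sample, and grey lines join the lowest and highest value. The control lies below both TEAD4 samples at most of them, down to -1.55 at Ttc23, and above both at Fto, Arf2 and Htra2, a direction that turned with normexp.

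The 38 promoters above both input and control had TEAD4 means from 1.05 to 2.60 and control values from -1.55 to 0.84. Of the 38, 26 had a control below 0, and 17 rested on 3 spots, against 46 of the 145 and 2537 of all 13969. An enriched promoter with a control below 0 meets the stricter rule by itself, so the 26 are all of that kind among the 145. Over all core promoters 85.3% had a control above 0. At 10 of the 38 at least 1 spot was not well above background in the control's IP channel, so the control value there is uncertain on the low side. In the values as processed here, the 5 largest differences from the control were those of Mrpl22, Ttc23, Cep44 [BC088983], Ppp6c and Pus3. This order does not stand with normexp, where they were 1.48, 1.60, 1.26, 1.89 and 1.34, against 2.50 at Trip6, and Mrpl22, Ttc23 and Cep44 each have a control spot not well above background. Cep44, a centrosomal protein, was at 1.11 and 1.19 with -1.39 in the control, and Pus3, a tRNA pseudouridine synthase, at 1.36 and 1.18 with -1.16. Their TEAD4 means of 1.15 and 1.27 lay below the median of the 145, 1.31, that of Pus3 only slightly. Over all 13969 core promoters, enriched or not, they ranked 144 and 92. In Cep44 the low control made up more of the difference than the TEAD4 value itself. Named after their values were seen, other members of the set included Gpx8 [2310016C16Rik], Tfpt, Cp, Zfp933 [MGC67181], Ier3, Cdk5, Lars, Rin1, Ap4b1, Cdc26, Hjv [Hfe2], EG432723, Arid5b, Mcm9, Ercc3, Klhl30, Ganc, Tceanc2 [2210012G02Rik], Cspp1, Txndc12, Fgd4 and Nbr1, besides Trip6, Ogn, Ankrd1, Creb3l2, Dmap1, Blzf1, Mustn1, Rpl3, Rpl4 and Ankrd23.

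The 24 enriched promoters that limma called lower than the control had TEAD4 means from 1.05 to 2.02 and control values from 1.85 to 4.49, and as given above most of them turned with the scaling. Besides Fto, Arf2 and Htra2 they include the chaperone gene Hspa5 and the ubiquitin ligase gene Syvn1. Lipt1 [EG623661 on the array], a lipoyltransferase, was at 1.30 and 1.81 with 3.09 in the control, and at 1.23 and 1.66 with 1.29 under normexp.

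Promoters next to the threshold show how little separates the 2 sides. Just inside, the lower of the TEAD4 values was 1.00 at Echdc3 and 1.01 at Hypk [2310003F16Rik]. Just outside, it was 1.00 at Hoxc10 and Pdk4 and 0.99 at Exo5 [3110037I16Rik]. Pdk4, a kinase that restrains pyruvate oxidation in muscle, had 1.92 in sample 2 and missed the rule through sample 1 alone.

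Enrichment at the start was next compared with that around it, as the core value minus the value of the same gene's flank, its spots over 500 and up to 3000 bp away. In the TEAD4 samples limma called the core above the flank at 2478 of 13903 genes, 17.8%, and below it at 218, 1.57%. This fit had 1 residual and 75.69 prior degrees of freedom. Its SE and p therefore rest mostly on a spread pooled over genes and little on each gene's 2 samples. The median core minus flank was 0.17 in TEAD4 and 1.11 in the control. Of the 145 enriched core promoters 141 were called above their flank, while Cavin4, Tnfrsf12a, Cspp1 and Slc39a13 were not. The 145 were chosen on their core value, so this count describes them and is no test. None of their flanks was 2-fold over input in both TEAD4 samples. The 5 largest core minus flank values belonged to Mrpl22 at 2.78, Trip6 at 2.29, Lipt1 at 2.02, Blzf1 at 1.97 and Ogn at 1.89 (each SE at most 0.18, limma, adjusted p at most 1.09e-13). In the control the same difference was 0.33, -0.53, 4.14, 0.36 and 0.48, so as processed here Lipt1 had a steeper start in the control than in TEAD4. With normexp the core of Lipt1 was at 1.29 in the control beside 1.23 and 1.66 in TEAD4, and its core minus flank is not given here.

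In the promoters enriched in both samples the TEAD4 signal was spread over both sides of the start. Spots up to 500 bp upstream had means of 1.30 and 1.59 in TEAD4 samples 1 and 2, and those up to 500 bp downstream 1.33 and 1.37. Between 500 and 1000 bp the means had fallen to 0.62 and 0.78 upstream and to 0.60 and 0.64 downstream. Of the 94 with spots on both sides, the downstream mean was the higher in 40, against 6716 of 12054, 55.7%, over all core promoters. Another 48 of the 145 had core spots downstream only, as Fto and Mrpl22 do, against 1587 of all 13969 core promoters. For these the upstream side was not measured.

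**Figure D3:**
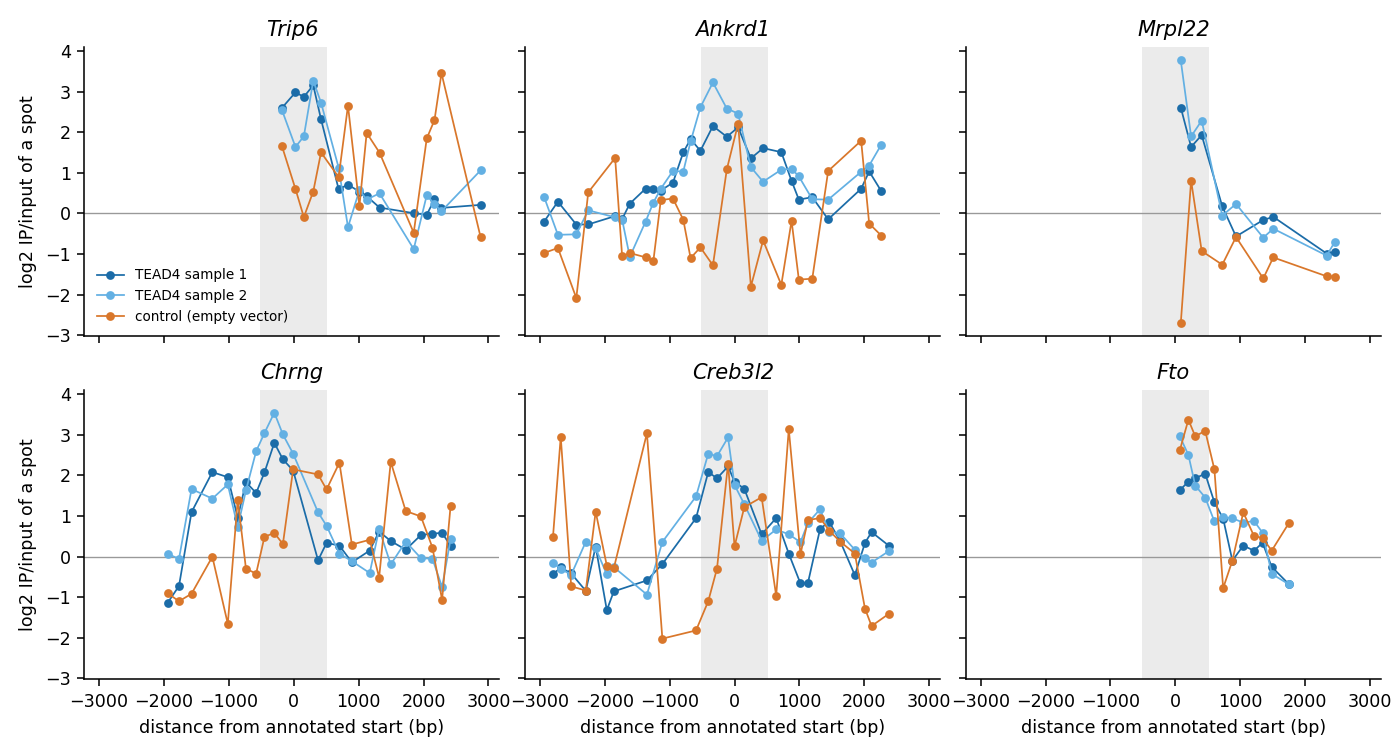
Log2 IP/input of single spots against distance from the annotated start for 6 of the most enriched core promoters; lines join the spots of a sample and the grey band marks 500 bp on either side. The highest TEAD4 value lies within the band in all 6, while the control is erratic from spot to spot and lies above TEAD4 at the 4 core spots of Fto in all but 1 spot of sample 2.

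At 9 genes the flank was at least 2-fold over input in both TEAD4 samples and the core was not. They were Ankrd2, Bloc1s1, Capn2, Cnn2, Eno1, Myl6, Rab7b [5430435G22Rik], Sh3bgr and Tuba1b. By limma the core was below the flank at 6 of them, and not told apart from it at Tuba1b, Eno1 and Rab7b (adjusted p = 0.0505, 0.474 and 0.579). Rab7b nearly reached the rule at its core too, with 1.15 and 0.81. Of the 9, Capn2, Cnn2, Myl6, Rab7b, Sh3bgr and Tuba1b are named here after their values were seen. Ankrd2, a muscle ankyrin repeat protein related to Ankrd1, had 0.60 and 0.30 at the core and 1.18 and 1.16 in the flank, a core minus flank of -0.72 ± 0.17 (SE) (limma, adjusted p = 0.00136). Bloc1s1, a subunit of a complex for lysosome-related organelles, had 0.78 and 0.53 at the core and 1.82 and 1.57 in the flank. Its core minus flank of -1.04 was among the 3 lowest (limma, adjusted p = 3.94e-06), with Clec12a at -1.06 and Olfr835 at -0.97 (limma, adjusted p = 5.42e-06 and 2.13e-05). In Clec12a and Olfr835 the flank itself differed widely between the samples, 0.38 and 1.31 in the first and -0.24 and 0.74 in the second.

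Other genes fixed for description had cores under the 2-fold rule beside flanks of similar or higher value, though limma called each of the cores higher than input (adjusted p = 0.00636, 0.00567 and 0.00248 for Thbs1, Ccn1 and Eno1). Thbs1, thrombospondin 1, had 0.57 and 1.27 at the core, with 1.56 in the control, and 0.99 and 1.12 in the flank. Ccn1 [Cyr61], a matricellular protein and YAP target, had 0.62 and 0.90 with 2.54 in the control, and 0.97 and 1.26 in the flank. Eno1, enolase, had 0.82 and 0.94 at the core and 1.03 and 1.11 in the flank. In none of these 3 did limma call the core and flank different (adjusted p = 0.631, 0.147 and 0.474).

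**Figure D4:**
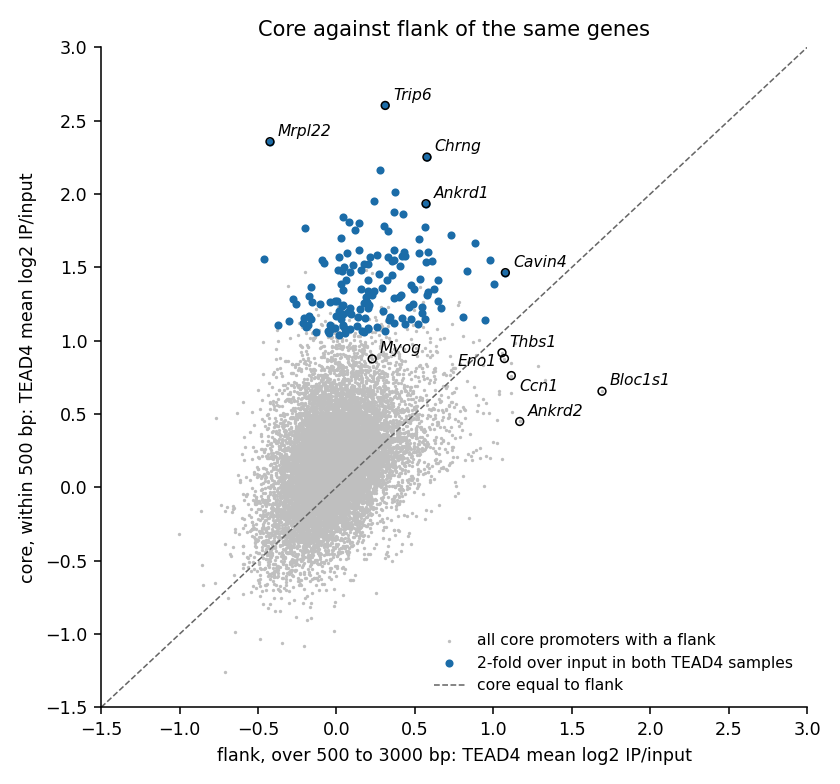
TEAD4 mean log2 IP/input at the core against that of the flank for 13903 genes (grey), with the core promoters enriched in both TEAD4 samples in blue and a dashed line where core and flank are equal. Trip6, Mrpl22, Chrng and Ankrd1 lie far above the line, Cavin4 near it, and Ankrd2, Bloc1s1, Ccn1, Eno1 and Thbs1 below it.

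The gene lists, here and below, were chosen with earlier results of these data known, so their shares beside those of all core promoters describe them and are no test. Among 31 measured YAP-responsive genes Ankrd1 was the member enriched in both TEAD4 samples, against 1.04% of all core promoters. Of the 31, 12 were called higher than input by limma, 38.7% against 18.3% of all, with none lower. The median TEAD4 mean of the list was 0.29, against 0.17 over all core promoters, and its median in the control was 1.52 against 1.36. Ccn2 [Ctgf], connective tissue growth factor, had 1.01 and 0.77 with 1.48 in the control, and Amotl2, an angiomotin that binds YAP, 0.68 and 0.36 with 1.31. Both had values in all 3 samples above 0 and a control above TEAD4, an order that turned with normexp. Without TEAD4 sample 1 the count was 3 and without sample 2 it was 2, where 2.86% and 1.90% of all core promoters passed.

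Of 23 genes of the Hippo network and TEAD cofactors 11 were higher than input by limma, 47.8% against 18.3% of all core promoters, and Vgll4 was enriched in both samples, against 1.04% of all. Vgll4, a cofactor that binds TEAD proteins and represses YAP-dependent transcription, was at 1.47 and 1.74 with 1.19 in the control, not told apart by limma (adjusted p = 0.145). With normexp Vgll4 was at 1.38 and 1.69 with 0.24 in the control, and with loess TEAD4 lay 0.79 above the control, so this nearness depends on the processing. The median TEAD4 mean of the list was 0.42. The median of the control was 2.08.

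Muscle genes enriched at the start included 3 subunits of the acetylcholine receptor. Of 36 genes for excitation-contraction coupling and muscle metabolism 4 were enriched in both samples, 11.1% against 1.04% of all core promoters, with a list median of 0.37, and 16 were higher than input by limma, 44.4% against 18.3%. They were Chrng, Chrna1, Chrnb1 and Cav3. Chrna1, the alpha subunit of the receptor, was at 1.18 and 1.65 with 0.50 in the control (limma, adjusted p = 0.00923). Chrnb1, the beta subunit, was at 1.16 and 1.46 with 1.03, and Cav3, muscle caveolin, at 1.20 and 1.19 with 0.93 (limma, adjusted p = 0.319 and 0.312). The other subunit genes, looked up after these values were seen, were lower: Chrnd had 0.88 and 0.63 with 1.04 in the control, and Chrne, the subunit of the adult receptor, 0.16 and -0.59 with -0.06. With normexp background correction Chrng alone of the 36 was left.

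Of 46 sarcomere genes 2 were enriched in both samples, 4.35% against 1.04% of all core promoters. The count was 6 without TEAD4 sample 1 and 4 without sample 2, where 2.86% and 1.90% of all core promoters passed. By limma 18 of the 46 were higher than input, 39.1% against 18.3%. Ankrd23, another muscle ankyrin repeat protein, was at 1.06 and 1.64 with -0.25 in the control (limma, adjusted p = 4.17e-04). Cavin4 [2310039E09Rik], a caveolar protein of muscle, was at 1.28 and 1.65 with 1.49, and its flank was at 0.78 and 1.37. The sarcomere list had the lowest control median among the muscle lists, 0.45, and 9 members were higher and 15 lower than the control by limma. Acta1, skeletal muscle actin, had 0.38 and 0.99 with 1.47 in the control.

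No member of the 27 myogenic regulators or of the 24 fusion and adhesion genes was enriched in both samples, against 1.04% of all core promoters. At that share lists of this size may well hold none. By limma 6 of each were higher than input, 22.2% and 25.0%, near the 18.3% of all core promoters. Myog, myogenin, came close, at 0.91 and 0.84 with 0.89 in the control. It was higher than input by limma (adjusted p = 0.00245), and its TEAD4 minus control was -0.01. With normexp it had 0.99 and 0.86 with 0.00 in the control, and TEAD4 lay above the control with loess too, so its overlap with the control depends on the processing. Myod1 had 0.33 and 0.35 with 1.19. Mymk [1110002H13Rik], a fusogenic membrane protein of myoblasts, had 0.49 and 1.02 with 2.81. Ckm, muscle creatine kinase, had 0.20 and -0.03 with 1.86, and its TEAD4 samples were not told apart from input by limma (adjusted p = 0.689). No core spots of Tead1 or Tead4 itself entered.

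Of 38 genes of the actin cytoskeleton and focal adhesion Trip6 was the member enriched in both samples, and 8 were higher than input by limma, 21.1%, near the 18.3% of all core promoters. The list median was 0.23 in TEAD4 and 2.11 in the control. Of 37 genes of the unfolded protein response and endoplasmic reticulum chaperones 4 were enriched, 10.8% against 1.04% of all core promoters, and 14 were higher than input by limma, 37.8% against 18.3%. Beside Creb3l2 they were Ddit3, a stress-induced transcription factor, at 1.42 and 1.41 with 0.86 in the control, Hspa5, the chaperone BiP, at 1.31 and 1.31 with 2.67, and Syvn1, a ubiquitin ligase of the reticulum, at 1.14 and 1.18 with 2.64. Creb3l2 and Ddit3 were higher than the control by limma and Hspa5 and Syvn1 lower (adjusted p = 0.00108, 0.0488, 3.46e-04 and 1.88e-04). With normexp 2 of the 37 were left, Creb3l2 and Hspa5, and TEAD4 lay above the control at Hspa5 and Syvn1 by 0.08 and 0.43.

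Of 61 ribosomal protein genes 29 were higher than input by limma, 47.5% against 18.3% of all core promoters, with a list median of 0.44, and 3 were enriched in both samples, 4.92% against 1.04%. Those were Rpl3, Rpl4 at 1.28 and 1.55 with -0.62 in the control, and Rps26 at 1.04 and 1.27 with 0.57. Without TEAD4 sample 1 the count was 6, where 2.86% of all core promoters passed. Of 58 mitochondrial ribosomal protein genes 20 were higher than input, 34.5%, and Mrpl22 was enriched. Of 43 translation initiation factors, 31 proteasome subunits, 34 cell cycle genes and 27 housekeeping and glycolysis genes none was enriched in both samples, while 14, 14, 11 and 12 were higher than input by limma, which is 32.6%, 45.2%, 32.4% and 44.4%. Actb, cytoplasmic actin, had 0.74 and 0.97 with 1.86 in the control, and Gapdh 0.75 and 0.23 with 1.95.

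Genes of other tissues gave the lowest TEAD4 values, and olfactory receptor and liver genes also the lowest in the control. Of 26 liver, 26 neuronal and 24 haematopoietic genes none was enriched in both TEAD4 samples, against 1.04% of all core promoters. At that share such short lists may well hold none. By limma 0, 1 and 0 of these genes were higher than input, against 18.3% of all core promoters. Their median TEAD4 means were -0.04, 0.11 and 0.04, and their control medians 0.20, 1.12 and 1.08, against 1.36 over all core promoters in the control. Alb, serum albumin, had -0.36 and -0.12 with -0.24 in the control. The 560 olfactory receptor genes had a TEAD4 median of -0.27, with 2 higher than input by limma and 125 lower, of the 330 lower in all. Their control median was -0.35, and 10.2% of them were 2-fold over input in the control, against 60.6% of all core promoters. The lowest core promoters in TEAD4 were Olfr195 at -1.38 and -1.13, Olfr695 at -1.38 and -0.79, and the histone gene H2bc14 [Hist1h2bm] at -1.15 and -0.97. Their controls were at 0.45, 2.05 and 1.02, and Olfr195 had 1 of its 3 spots not well above background in a TEAD4 IP channel.

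**Figure D5:**
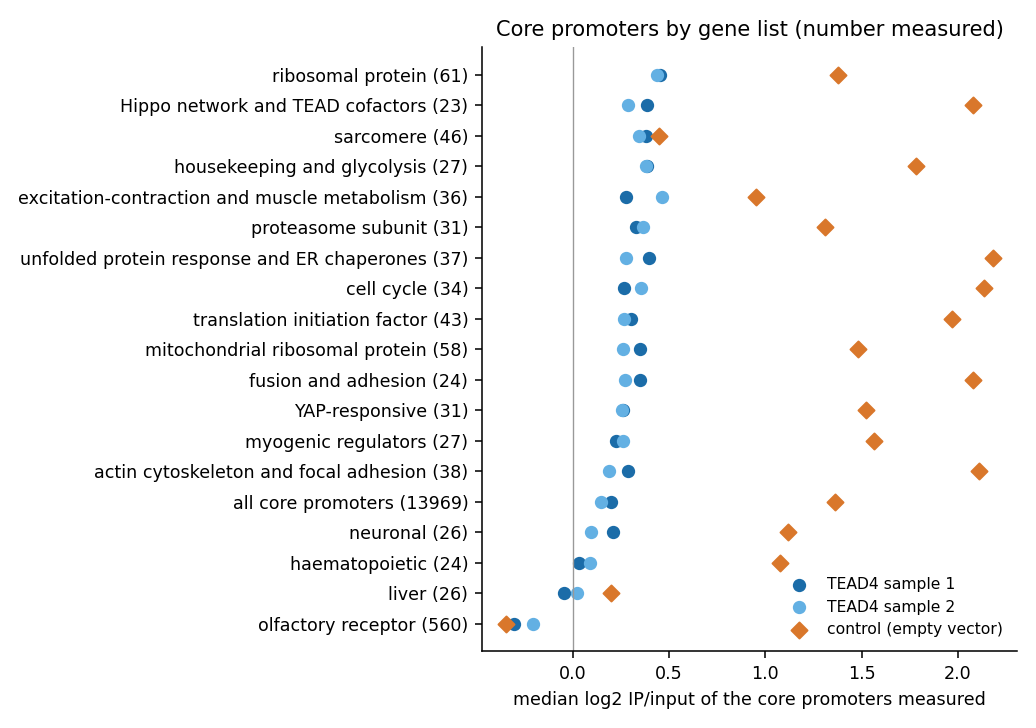
Median log2 IP/input over the measured core promoters of each gene list, for each sample, with the number of promoters in brackets; circles are the TEAD4 samples and diamonds the 1 control sample. TEAD4 medians run from below 0 for olfactory receptors to 0.45 in sample 1 for ribosomal proteins and 0.46 in sample 2 for excitation-contraction and muscle metabolism genes. The control's run from -0.35 to 2.18.

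The control's highest core promoters had little TEAD4 signal. Pcbd2, a cofactor of transcription, was at 5.49 in the control with 0.33 and 0.25 in TEAD4. Cenpb, a centromere protein, was at 5.29 with 0.58 and 0.62, and Atg16l1, an autophagy protein, at 5.14 with 0.41 and 0.34.

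Base composition moved with the control far more than with TEAD4 in the values as processed here, the only ones compared with it. With normexp, where the control's median over core promoters was 0.22, this was not examined. RefSeq held exactly 1 promoter for 9026 of the core promoters, and these were split into 5 groups of similar size by the GC content of the 300 bases around the start. The control median rose from -0.05 in the group lowest in GC to 2.27 in the highest, and the share 2-fold over input from 17.3% to 91.1%. TEAD4 sample 1 rose from -0.16 in the lowest to 0.25 in the middle and 0.27 in the highest, and sample 2 from -0.07 to 0.20 in the middle and 0.18 in the highest. The share enriched in both TEAD4 samples was 0.985%, 1.52%, 1.56%, 0.720% and 0.685% from low to high GC, so it was highest in the middle groups. The part of base composition in the ratios was not tested.

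The TEAD core motif GGAATG was searched on both strands in the 250 bases before the RefSeq start. It was present in 1022 of 9026 matched core promoters, 11.3%, and in 12.6% of all 32851 RefSeq promoters. Among the enriched core promoters 28 of the 99 matched held it, 28.3%, and among those also above the control 10 of 23, 43.5%. Of the 20 with the largest TEAD4 means 15 were matched and 8 held it. Among core promoters 2-fold over input in the control the share was 10.1%. The AP-1 motif TGANTCA, searched on both strands and independently of GGAATG, was found in 8.08% of the enriched and 5.82% of all matched core promoters. Among the 23 also above the control 0 held it. Median GC content was 56.7% in the enriched and 58.3% in all matched core promoters. These are shares of letters within a fixed window, given with no test, and the array's annotated start and the RefSeq start may differ.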

How the data were processed

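Chromatin precipitated from 2 TEAD4 samples and 1 control was hybridised to 2 array designs each, 6 arrays in all. Per the file headers, the authors extracted the intensity of each spot with Feature Extraction 9.5.3.1 of Agilent, which subtracted background and scaled the dyes. The deposited log10 ratios of IP over input equal the series matrix values (largest difference 0) and served as a check. From the deposited processed intensities, log2 ratios were formed and every array was set to a median of 0. Control spots, 738 spots without a position and 1773 flagged non-uniform were left out. Core promoters and flanks were averaged per gene and tested with limma 3.58.1 in R 4.3.3, two-sided, with Benjamini-Hochberg adjustment over all core promoters at 0.05, and the 1 control was given the spread of the TEAD4 samples. Levels of 2-fold are rules of size. The number of arrays limits the precision. The fits were also run on simulated data in which the control had the same spread as the TEAD4 samples. Calls against the 1 control here are not checked by it.

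Symbols were brought up to date with RefSeq GRCm38.p6, 13735 of them through the accession, 135 through the symbol and 68 through a synonym, and 31 kept the file's name; the array's own symbol is in brackets where it differs. The members and gene lists were chosen with earlier results of these data known. Named genes were the 20 with the largest TEAD4 mean, up to 4 enriched members per list, 19 fixed genes, and those at the ends of the control, core minus flank and threshold orders. A few promoters that the naming rule or a set holds are not reported here by name.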

Additional observations from a re-analysis of the deposited data

How the results depend on the processing

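Input well above background, loess within arrays and limma's trended, robust prior left every count within 1.5 times. The number 2-fold over input in both TEAD4 samples was 265 to 399 with 1 TEAD4 sample left out, and 57 to 104 were also above the control. Limma could not be run that way, having no residual degrees of freedom. At 1.5-fold the counts were 856 and 127, and at 3-fold 14 and 4. With normexp background correction 76 were enriched, 60 of them among the 145, and 1055 in the control, and limma gave 1233 higher and 10 lower than input, 124 higher and 488 lower than control, and 570 core above and 47 below flank. With all arrays brought to 1 median absolute deviation 896 were enriched, 261 also above the control, 4780 in the control, and 51 were higher and 34 lower than control by limma.

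Fewer promoters had enough spots within 250 bp: 84 enriched, 16 above the control, 4701 in the control, 948 higher and 121 lower than input, 389 higher and 4895 lower than control, and 669 core above and 46 below flank. With at least 5 spots these were 72, 15, 5215, 1590, 186, 428, 5934, 1458 and 137. Within 1000 bp 25 were above the control, and 3861 were higher and 779 lower than input. The median of spots gave 208 lower than input, 1194 higher than control, and 1550 core above and 76 below flank. No named TEAD4 mean that limma had called changed sign in any of these. Counts per list without either TEAD4 sample and with normexp were added after seeing the data. No paired analysis was possible because the control is 1 sample. The control's extended dynamic range could not be undone, so comparisons with it are limited by its dim IP signal.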
